A study of Rattus norvegicus with 6 samples.

Results

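The genes described here encode enzymes that attach ubiquitin to proteins and enzymes that take it off again: the ubiquitin-activating enzymes (symbols beginning Uba and a digit), the ubiquitin-conjugating enzymes (Ube2) and the deubiquitinases of the USP, OTU and UCH families (Usp and a digit, Otu, Uch). They were picked out by symbol, from probe sets to which the platform annotation gives exactly 1 gene symbol. The rule found 161 probe sets for 89 genes, of 14217 genes with such a probe set on the array. These were 5 activating enzymes, 29 conjugating enzymes, 54 deubiquitinases and Usp6nl, a GTPase-activating protein for Rab proteins that shares only the letters of its symbol with the USP family. The classes follow the symbol, so their counts and medians include genes described below as inactive, such as Ube2v2 and Usp39. RNA came from 6 cultures of UMR106-01, a rat osteosarcoma line with osteoblast properties, each measured on 1 Affymetrix array. All 6 were plated at 100000 cells per cm2 with 10% fetal bovine serum in the medium, given new medium with 6.5 mM beta-glycerol phosphate (a phosphate donor for mineral formation) at 64 h, and harvested at 76 h. In 3 of them, called mineralizing here, that was the only addition; the other 3 also had 400 µM AEBSF, a serine protease inhibitor, for the last 12 h. Every comparison is therefore AEBSF against no AEBSF within mineralizing medium, in a single tumour-derived cell line.

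Ubiquitin is a small protein that is joined to other proteins in a relay. An activating enzyme charges ubiquitin at the cost of ATP, a conjugating enzyme carries it, and a ligase directs it to a substrate, where chains of different linkage mark proteins for the proteasome or serve as signals. Deubiquitinases cut these bonds, recycle ubiquitin and edit chains, and some of them work on the proteasome itself. Osteoblasts depend on this system for the turnover of transcription factors and signalling proteins and for the disposal of misfolded secretory proteins.

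The deposited values are MAS5 signals, intensities in arbitrary units that were scaled to the same trimmed mean of about 500.2 on every array. A change is therefore relative to the other transcripts on the array, not to the number of cells or the RNA per cell. Rank correlations between arrays were 0.9858 to 0.9906 within a group and 0.9790 to 0.9837 between groups, and no array was a copy of another. The 3'/5' signal ratio of GAPDH, a control for RNA integrity, was 1.02 to 1.06 in mineralizing and 1.05 to 1.08 in AEBSF cultures, that of beta-actin 1.52 to 1.54 and 1.46 to 1.61, and that of hexokinase 1.79 to 2.19 and 1.53 to 2.04. The part of these ratios in the results was not tested. Of 8 measured osteoblast markers 7 were above the signal filter; Bglap (osteocalcin), a defining marker of mature osteoblasts, was at signals of 1.41 to 7.46, below it. The summed osteoblast signal was 27910 to 29255 in mineralizing and 25374 to 26296 in AEBSF cultures. Col1a1, Col1a2 and Phex passed the threshold as lower, and the part of this shift in the results was not tested. Markers of other cell types were mostly too dim to be tested: 1 of 6 for macrophages and osteoclasts, 1 of 5 for muscle and 1 of 4 for chondrocytes lay above the filter, none of which passed the threshold, and those of endothelium and adipocytes all lay below it.

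Most genes of the ubiquitin cycle did not pass the threshold, and those that did changed by less than 2-fold. Of the 89 genes, 83 had a probe set bright enough to be tested. By limma's moderated test with Benjamini-Hochberg adjustment over all probe sets tested, 7 rose and 4 fell with AEBSF at an adjusted p under 0.05, which is 13.3% of the 83. Of all 9864 genes tested, 16.3% passed, 7.09% as higher and 9.22% as lower, against 8.43% and 4.82% of the members. The share of members that passed was thus no larger than that of the array. The log2 fold changes of the members ran from -0.78 to 0.52, with a median of 0.05 beside 0.00 for all tested genes. A value above 0 was found for 54 of 83 members, or 65.1%, against 50.3% of all tested genes. In 22 members (26.5%) all 3 AEBSF signals lay above all 3 mineralizing signals, where 17.0% of all tested genes did so; in 9 members (10.8%) all 3 lay below, against 19.1%.

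**Figure D1:**
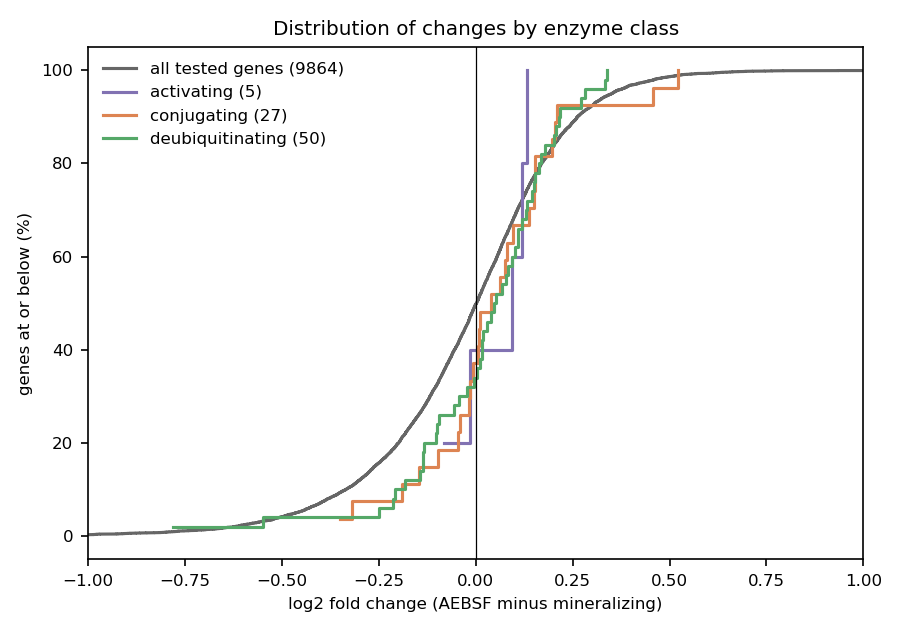
Cumulative distribution of the log2 fold change (horizontal axis, AEBSF minus mineralizing) as the percentage of genes at or below each value (vertical axis), for the 5 activating enzymes, 27 conjugating enzymes, 50 deubiquitinases and all 9864 tested genes. The conjugating and deubiquitinating curves lie to the right of the grey curve at 0, with 63.0% and 66.0% of genes above 0 against 50.3%, and the members' curves stop at -0.78 and 0.52 while those of all genes run on, past the plotted range, to -1.52 and 1.84.

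These values depend on how the arrays are scaled. Quantile normalization gave 5 members higher and 4 lower, and centring each array on its median 4 and 3 (472 and 736 over the whole array). When the arrays were scaled to their spiked hybridization controls in place of the deposited scaling, the median of all tested genes moved to -0.14 and that of the members to -0.09. Calls over the whole array then went from 699 higher and 909 lower to 55 higher and 1324 lower, and calls among members from 7 and 4 to 1 and 4. On that scale 27.7% of members and 24.4% of all tested genes had a value above 0. Rises given below are thus rises relative to the bulk of transcripts, and with the hybridization controls only Ube2n of the 7 still passed.

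The genes that rose were Ube2n, Ube2g2, Ube2k and Ube2d2 among conjugating enzymes and Uchl5, Usp13 and Usp14 among deubiquitinases. The genes that fell were Ube2d1, Usp9x, Otub2 and Otud1. In each of the 11 the 3 signals of one group lay wholly apart from the 3 of the other. The 11 were chosen by a test on these same signals, so their separation adds no support. Ube2n and Otud1 passed under every alternative in which they were tested, and Ube2g2 and Uchl5 passed whichever array was left out.

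**Figure D2:**
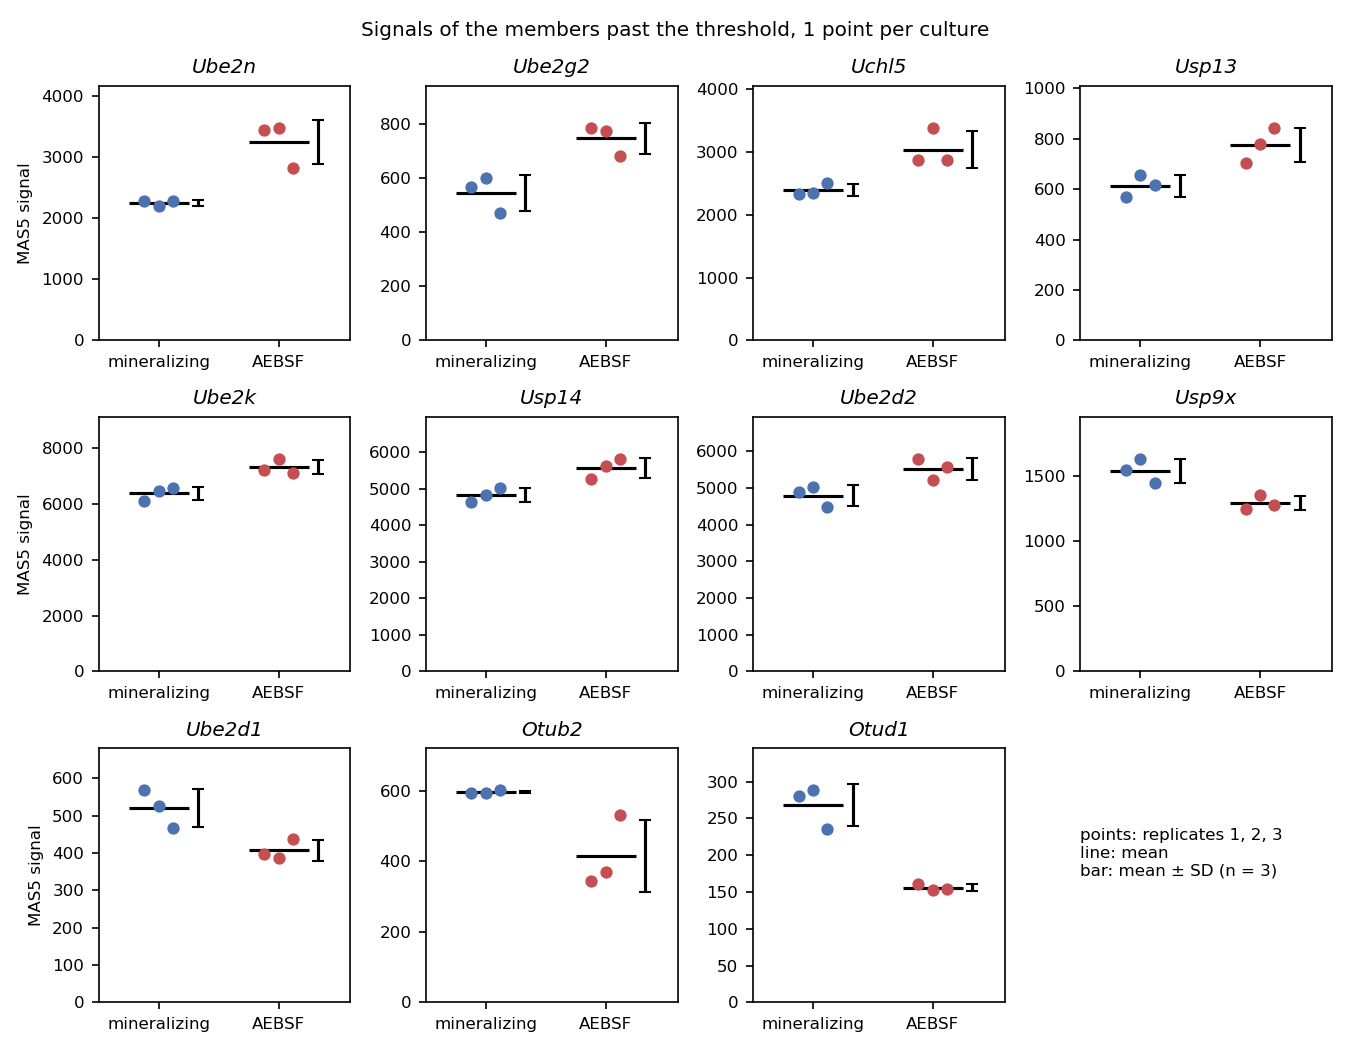
MAS5 signal (vertical axis, arbitrary units from 0) of the 11 genes that passed the threshold, with 1 point per culture, a line at the group mean and a bar for the mean ± SD of 3 cultures. The groups do not overlap in any panel; Ube2n goes from 2249 to 3242, while in Otub2 the third AEBSF culture, at 532, stands near the mineralizing cultures at 594 to 601.

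The activating enzymes stood close to their mineralizing levels. None of the 5 passed the limma threshold, and 1 had an unadjusted p under 0.05; the median log2 fold change was 0.09 (-0.05 with the hybridization controls). Uba1, the main activating enzyme of ubiquitin, had signals of 3380, 3231 and 3242 in mineralizing and 3803, 3612 and 3299 in AEBSF cultures, groups that overlap (log2 fold change 0.12 ± 0.06 SE, adjusted p = 0.225). Uba6, the alternative activating enzyme of ubiquitin, differed by -0.01 on the log2 scale (2104 ± 206 and 2077 ± 60.1, mean ± SD, n = 3 each). Uba2, the catalytic subunit of the SUMO-activating enzyme, was the only member of the class whose groups did not overlap, with 6737, 7157 and 7063 against 7795, 7359 and 7824 (0.13 ± 0.05, adjusted p = 0.115). Uba3, the catalytic subunit of the NEDD8-activating enzyme, was at 6829 ± 343 and 7287 ± 440. Uba7, which activates the interferon-induced modifier ISG15, was dim in both groups, at 102 ± 10.7 and 96.7 ± 14.9.

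Among the 27 tested conjugating enzymes 4 rose and 1 fell (14.8% and 3.70%, beside 7.09% and 9.22% of all tested genes). Their median was 0.04 (-0.10 with the hybridization controls). Ube2n, which with a catalytically inactive partner builds the ubiquitin chains used in DNA damage and inflammatory signalling, had the largest rise of all 83 members. Its signals were 2280, 2192 and 2274 in the mineralizing cultures and 3436, 3466 and 2825 in the AEBSF cultures. The lowest treated culture was above the highest untreated culture, and the difference was 0.52 ± 0.08 SE on the log2 scale, or 1.44-fold (95% interval 0.36 to 0.69, adjusted p = 0.00135). Its other probe set also passed, at 0.36 (adjusted p = 0.0444). Ube2v2, an inactive partner of Ube2n, was at 1940 ± 57.4 and 2047 ± 164, with overlapping groups (0.08 ± 0.07, adjusted p = 0.505).

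Ube2g2 is the conjugating enzyme that serves ligases of the endoplasmic reticulum in the degradation of misfolded proteins. It had signals of 567, 599 and 469 against 783, 774 and 681. All treated cultures were higher, by 0.46 ± 0.10 or 1.37-fold (adjusted p = 0.0145), and its dimmer probe set pointed the same way without passing (0.35, adjusted p = 0.0842). The other conjugating enzymes of that route did not pass: Ube2j1, anchored in the reticulum membrane, was at 921 ± 21.6 and 984 ± 37.9 (0.10 ± 0.07, adjusted p = 0.384), and its relative Ube2j2 at 2166 ± 46.5 and 2184 ± 55. Ube2g1, the paralog of Ube2g2 that works with cullin ligases, was at 2504 ± 150 and 2436 ± 195 (-0.04 ± 0.07, adjusted p = 0.744).

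Ube2k, which extends the chains that mark proteins for the proteasome, had signals of 6120, 6466 and 6555 against 7216, 7596 and 7123. The groups did not overlap and the rise was small, 0.20 ± 0.05 or 1.15-fold (adjusted p = 0.0298). Its 3 other probe sets gave 0.04, 0.13 and 0.03, none past the threshold, and the mean of all 4 did not pass. With mineralizing culture 1 or 2, or AEBSF culture 1 or 2, left out the brightest probe set did not pass either (adjusted p up to 0.11).

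Ube2d2 and Ube2d1 are close paralogs that work with a wide range of ligases, and they went opposite ways. Ube2d2 had signals of 4880, 5016 and 4482 against 5781, 5211 and 5568, a rise of 0.20 ± 0.06 (adjusted p = 0.0451). Its 2 further probe sets gave 0.19 and 0.29 (adjusted p = 0.203 and 0.0545). Ube2d1 had 568, 525 and 468 against 398, 386 and 438, a fall of 0.35 ± 0.10 (adjusted p = 0.0419), but its dimmer probe set gave 0.08 (adjusted p = 0.785). The log2 ratio of the brightest probe set of Ube2d2 to that of Ube2d1 was 0.55 higher with AEBSF. An exact two-sided permutation test gave p = 0.1, the smallest that 3 against 3 cultures allow. It was 0.15 after adjustment over 3 such pairs, all picked after their values were seen. Both genes had separated groups, in opposite directions, so the ratio had to separate and this p was fixed by the choice. It adds no support. In the second pair, Ube2n to Ube2v2, the ratio was 0.45 higher, with the same exact permutation p. Sequences of the Ube2d family are so alike that 3 further probe sets are annotated to both Ube2d2 and Ube2d3 and were not used, so the values of the family remain uncertain. Ube2d1 lost the threshold without mineralizing culture 1 or 2 or without AEBSF culture 1 or 2 (adjusted p up to 0.168), and Ube2d2 kept it only without AEBSF culture 2.

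The conjugating enzymes of the cell cycle had overlapping groups. Ube2c and Ube2s, which serve the anaphase-promoting complex in mitosis, were at 3222 ± 186 and 3137 ± 413, and at 7772 ± 207 and 7677 ± 253. Ube2t, of the Fanconi anaemia pathway of DNA repair, was at 1758 ± 82 and 1770 ± 94.6. The NEDD8 enzymes Ube2m (0.01 ± 0.06) and Ube2f (-0.02 ± 0.06) also had overlapping groups. Adjusted p-values of these 5 were 0.771 to 0.96.

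Other conjugating enzymes lay near the threshold or showed separated groups without passing it. Ube2o, a large enzyme that acts as conjugating enzyme and ligase in one, had 1895, 1719 and 1805 against 2244, 2093 and 1935 (0.21 ± 0.07, adjusted p = 0.0625). Ube2l3, which works with HECT and RBR ligases, was at 5415 ± 287 and 6018 ± 333 (0.15 ± 0.06, adjusted p = 0.116). Ube2b, which ubiquitinates histones and the sliding clamp of replication, was lower in every AEBSF culture. It was at 2611 ± 64.1 and 2360 ± 92.2 (-0.15 ± 0.06, adjusted p = 0.104). Its other tested probe sets gave -0.09 and -0.03 with overlapping groups. The brightest probe set of its near twin Ube2a was at 997 ± 81.1 and 1108 ± 106 with overlapping groups. The dimmer probe set of Ube2a was higher in every AEBSF culture without passing (0.24 ± 0.08, limma adjusted p = 0.065). Ube2l6, the conjugating enzyme of ISG15, was dim and also lower in every AEBSF culture, at 165 ± 4.81 and 133 ± 21.1, with a wide error (-0.32 ± 0.17, adjusted p = 0.24). Ube2h, Ube2r2 and Ube2z had overlapping groups, with log2 fold changes of 0.04, 0.15 and 0.06.

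**Figure D3:**
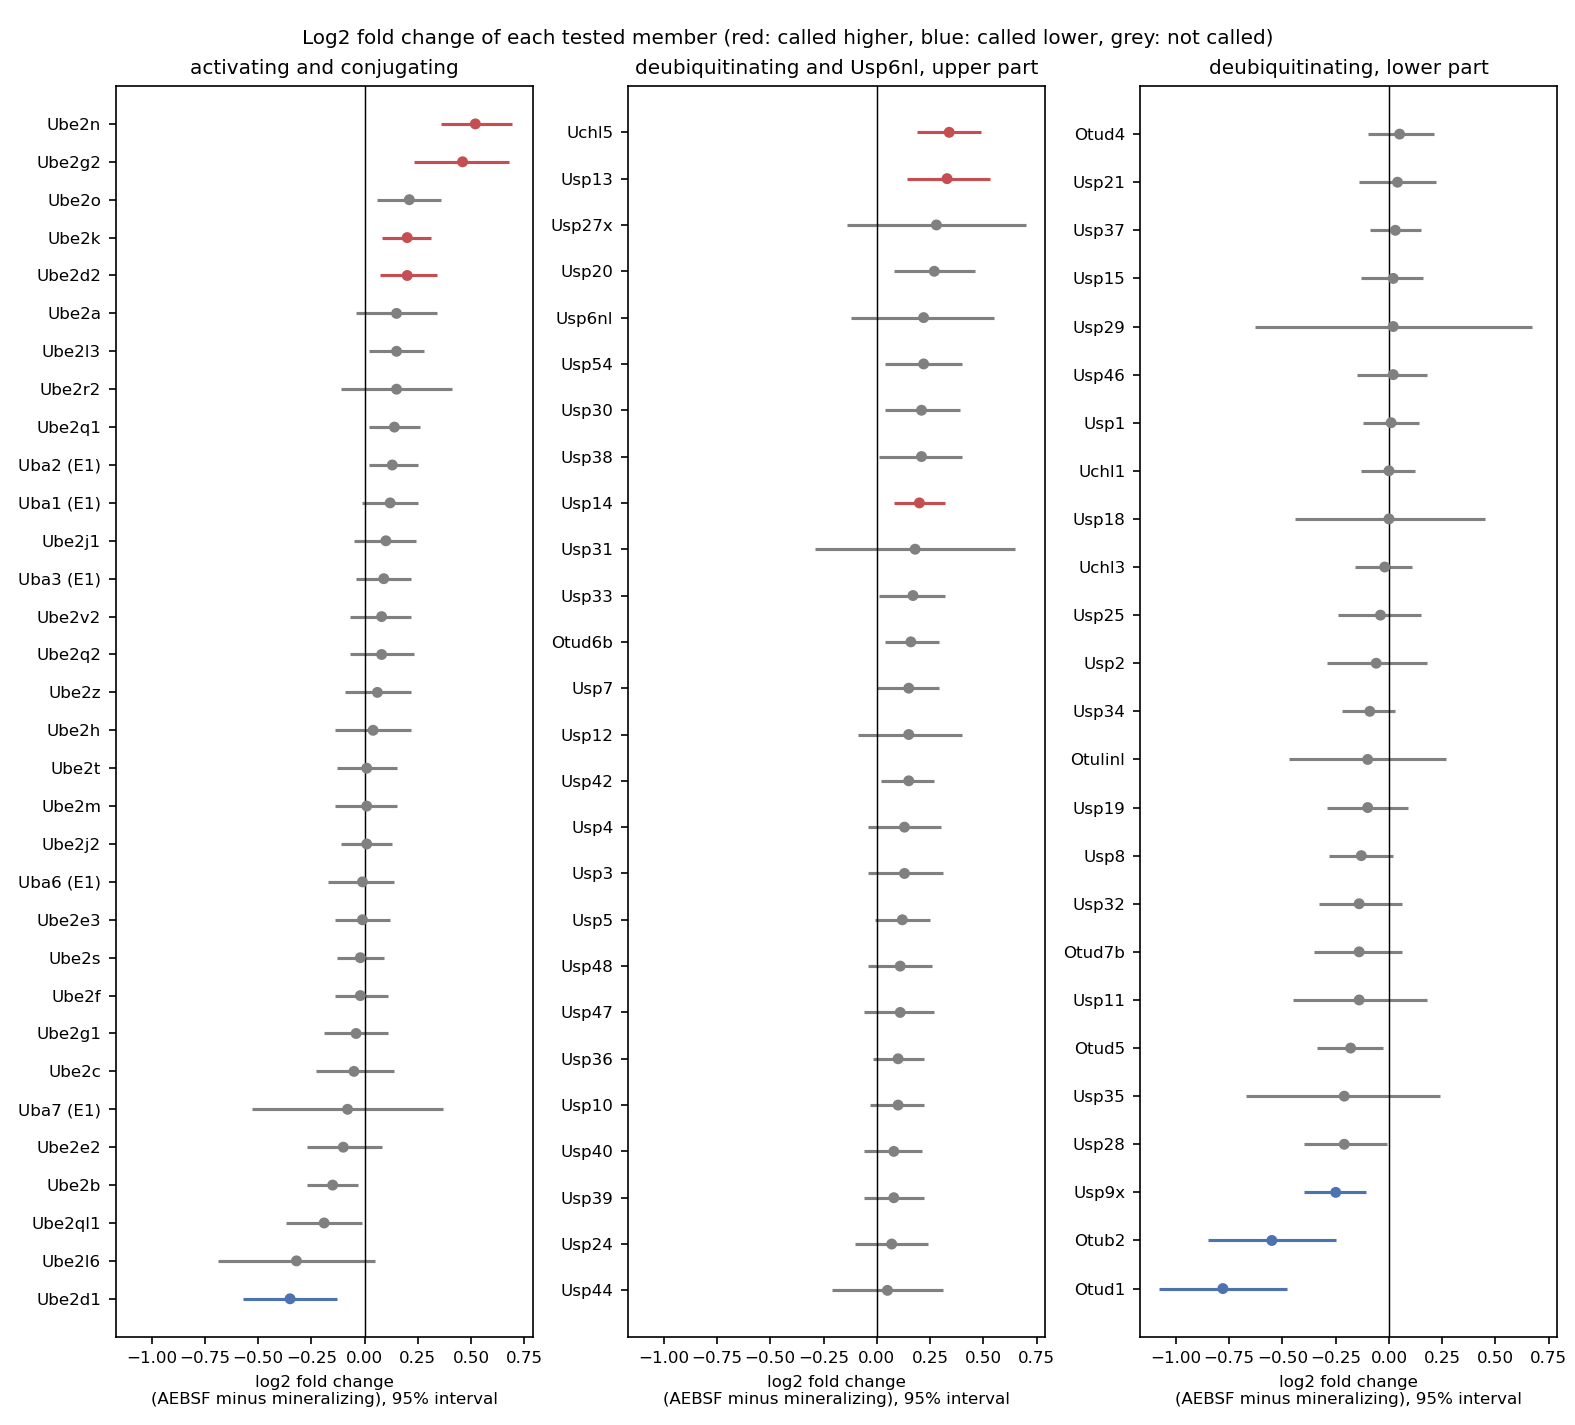
Log2 fold change (AEBSF minus mineralizing) with its 95% interval from limma for all 83 tested members, the activating and conjugating enzymes in the left panel and the deubiquitinases with Usp6nl in the others. Red and blue points passed as higher (7) and lower (4); most grey points lie between -0.25 and 0.25, and intervals are widest for dim genes such as Usp29 (0.02) and Usp18 (0.00).

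Among the 50 tested deubiquitinases 3 rose and 3 fell, with a median of 0.05 (-0.09 with the hybridization controls). As shares of the 50, both counts lay below those of all tested genes (7.09% higher and 9.22% lower). The 3 deubiquitinases that rose include both members that bind the proteasome. Uchl5 trims ubiquitin chains on the regulatory particle of the proteasome and had signals of 2339, 2353 and 2509 against 2868, 3378 and 2879. Every treated culture was higher, by 0.34 ± 0.07 or 1.26-fold (adjusted p = 0.00939). Usp14, the other reversibly bound deubiquitinase of the proteasome, had 4654, 4833 and 5038 against 5272, 5630 and 5810, with separated groups and a rise of 0.20 ± 0.06 or 1.15-fold (adjusted p = 0.0353). Psmd14, the metalloprotease subunit of the proteasome lid that removes ubiquitin as a substrate enters, lies outside the symbol rule; it had 4664, 4603 and 4782 against 6386, 5870 and 6184, a rise of 0.39 ± 0.05 (adjusted p = 0.000868). Of its 2 other tested probe sets, 1 passed as well (0.23, adjusted p = 0.0147) and the dimmest had overlapping groups (-0.04, adjusted p = 0.868). With the hybridization controls none of these 3 genes passed; the adjusted p of Psmd14 was then 0.0793. Psmd14 and Uchl5 passed whichever array was left out, whereas Usp14 lost the threshold without mineralizing culture 1 or 2 or without AEBSF culture 2 or 3 (adjusted p up to 0.128). The other UCH enzymes had overlapping groups: Uchl1, an abundant neuronal enzyme that is also expressed in some tumour lines, was at 6857 ± 184 and 6838 ± 372, and Uchl3 at 3404 ± 220 and 3347 ± 132.

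Usp13, a relative of Usp5 that acts in the quality control of the endoplasmic reticulum and in autophagy, had 568, 656 and 618 against 704, 778 and 841. The groups did not overlap and the rise was 0.33 ± 0.09 or 1.26-fold (adjusted p = 0.0311), with 0.28 in its other tested probe set (adjusted p = 0.114). With mineralizing culture 1 or 3, or AEBSF culture 2 or 3, left out it did not pass (adjusted p up to 0.127). Usp5, which takes apart free ubiquitin chains, was at 4640 ± 188 and 5046 ± 332 with overlapping groups (0.12 ± 0.06, adjusted p = 0.218). The log2 ratio of Usp13 to Usp5, the third of the pairs, was 0.21 higher with AEBSF and its groups overlapped (exact two-sided permutation p = 0.3, also 0.3 after adjustment).

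The largest change of all members was the fall of Otud1, an OTU deubiquitinase with roles in inflammatory and antiviral signalling. Its signals were 281, 288 and 236 in mineralizing and 161, 153 and 154 in AEBSF cultures, well separated, a fall of 0.78 ± 0.14 on the log2 scale or 1.72-fold (95% interval -1.08 to -0.48, adjusted p = 0.00428). It has 1 probe set, which is too dim to be tested under a filter at the 60th percentile. Otub2, of the same family, had 594, 595 and 601 against 344, 369.6 and 532. The mineralizing cultures were nearly equal and the AEBSF cultures spread widely, with a fall of 0.55 ± 0.14 or 1.46-fold (adjusted p = 0.0242). Only when AEBSF culture 3 was left out did Otub2 keep the threshold (adjusted p = 0.00135), and its dimmer probe set gave -0.35 (adjusted p = 0.132). Of the 7 tested genes whose symbol begins with Otu, these 2 fell (28.6%, beside 9.22% of all tested genes) and none rose (beside 7.09%). OTU genes outside the symbol rule are not in this count. Otud5, a regulator of interferon signalling, was lower in every AEBSF culture without passing (1043 ± 25.2 and 921 ± 62.8, adjusted p = 0.118). Otud6b was higher in every AEBSF culture, also without passing (2700 ± 22.7 and 3028 ± 179, 0.16 ± 0.06, adjusted p = 0.0801).

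Usp9x, a large deubiquitinase with many substrates, had 1549, 1631 and 1447 against 1248, 1359 and 1280. Every treated culture was lower, by 0.25 ± 0.07 on the log2 scale (adjusted p = 0.0294). Its 3 other tested probe sets gave -0.20, -0.04 and -0.14, none past the threshold. It passed only when mineralizing culture 3 or AEBSF culture 2 was the array left out (adjusted p up to 0.127 otherwise).

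Of the 40 tested USP genes, 2 rose and 1 fell (5.00% and 2.50%, beside 7.09% and 9.22% of all tested genes). A log2 fold change above 0 was found for 30 of them (75.0%), beside 50.3% of all tested genes. With the hybridization controls none rose and 1 fell, and 12 of the 40 were above 0, beside 24.4% of all tested genes. Usp20, which acts on several signalling proteins, had 476, 462 and 437 against 519, 585 and 557 (0.27 ± 0.09, adjusted p = 0.0646). Usp54 (0.22 ± 0.08) and Usp30 (0.21 ± 0.08), the latter on the outer membrane of mitochondria where it opposes mitophagy, also had separated groups, with adjusted p-values of 0.104 and 0.106. Usp27x (0.28 ± 0.19) and the non-member by function Usp6nl (0.22 ± 0.16) were dim, with overlapping groups. Usp10 (0.10 ± 0.06) and Usp39 (0.08 ± 0.07), a spliceosome protein without deubiquitinase activity, overlapped between groups, as did the membrane-anchored Usp19 (-0.10 ± 0.09). Usp18, which removes ISG15, was at 109 ± 9.27 and 111 ± 21.3.

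Probe sets of the same gene did not always give the same call. Of 39 members with several tested probe sets, 31 had all of them on the same side of 0. Of the 11 members that passed, 3 had a single tested probe set, and of the 8 others only Ube2n had another that passed. Conversely, 4 dimmer probe sets passed as higher in genes whose brightest probe set did not; these genes, other than Usp7, were named after their values were seen. Usp7, which stabilises p53 and its ligase, gave 0.15 ± 0.07 in its brightest probe set (1612 ± 83.3 and 1784 ± 109, adjusted p = 0.176) but 0.24 and 0.48 in 2 others (adjusted p = 0.0214 and 0.0206). A dimmer probe set of Usp42 gave 0.48 (301 ± 15.4 and 422 ± 49.2, adjusted p = 0.0182) where the brightest gave 0.15 (adjusted p = 0.108). For Usp1, which acts on the replication clamp and in the Fanconi pathway, the values were 0.25 (adjusted p = 0.0295) and 0.01 (adjusted p = 0.923).

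**Figure D4:**
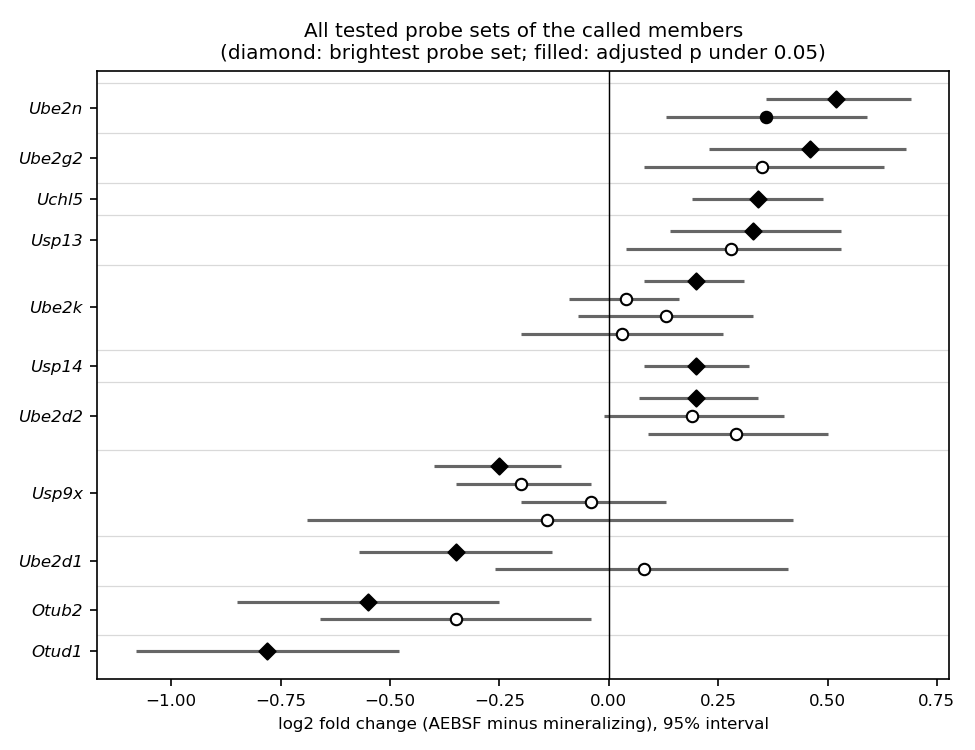
Log2 fold change (AEBSF minus mineralizing) with its 95% interval for every tested probe set of the 11 members that passed; diamonds mark the brightest probe set of a gene and filled symbols an adjusted p under 0.05. All probe sets of a gene lie on the same side of 0 except in Ube2d1, at -0.35 and 0.08.

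Promoters of the members were compared as a description only. The 7 members that rose are 8.43% of those tested, beside 7.09% of all tested genes. RefSeq promoters of assembly GRCr8, each running from 250 bases before to 50 bases after the transcription start, were at hand for 73 of the 89 genes and for 9 of the 11 that passed. They were searched on both strands for TGACNNNGC, the core of the antioxidant response element, through which oxidative stress acts on many genes. The letters were found in 6 of the 7 genes that rose, in neither of the 2 that fell and had a promoter, and in 12 of 60 members that did not pass (20.0%). Over all tested genes the share was 15.7%, among all genes that rose 17.0%, among all that fell 16.6%, and over all 27457 genes with a RefSeq promoter it was 13.1%. The matches differ in the bases left free and in their place, as 4 promoters show beside that of Ube2k, the riser without a match. Each stretch below runs 5′ to 3′ on the strand of the gene, from 140 to 21 bases before the start, and capitals mark a match, read on either strand.
Ube2n: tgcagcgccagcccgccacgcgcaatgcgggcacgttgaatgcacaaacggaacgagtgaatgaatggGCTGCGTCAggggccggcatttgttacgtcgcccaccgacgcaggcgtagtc
Uchl5: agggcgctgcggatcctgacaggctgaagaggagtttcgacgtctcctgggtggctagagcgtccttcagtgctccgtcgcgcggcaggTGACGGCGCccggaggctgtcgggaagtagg
Ube2g2: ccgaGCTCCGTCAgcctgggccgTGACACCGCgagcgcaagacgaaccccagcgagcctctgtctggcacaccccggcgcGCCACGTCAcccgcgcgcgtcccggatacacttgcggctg
Usp13: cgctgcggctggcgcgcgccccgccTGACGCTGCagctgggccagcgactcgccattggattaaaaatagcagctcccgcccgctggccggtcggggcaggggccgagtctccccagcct
Ube2k: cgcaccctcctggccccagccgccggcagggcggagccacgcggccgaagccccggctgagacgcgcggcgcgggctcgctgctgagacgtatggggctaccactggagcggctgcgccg
In GRCr8 these stretches are chr7:32041069-32041188 on the plus strand for Ube2n, chr13:58070936-58071055 on the plus strand for Uchl5, chr20:11005081-11005200 on the minus strand for Ube2g2, chr2:117505303-117505422 on the plus strand for Usp13 and chr14:43072235-43072354 on the minus strand for Ube2k. The match of Ube2n begins 72 bases before the start, that of Uchl5 51 bases before it, and Ube2g2 holds 3 matches in this stretch. The motif overlaps another: 7 of the 8 matches in the genes that rose also hold TGACG, a part of the cyclic AMP response element, a motif added after the matches were seen. TGACG was found in 6 of the 7 genes that rose, in 1 of the 2 that fell and in 31.7% of members that did not pass. Over all tested genes the share was 34.6%, among all genes that rose 38.9% and among all that fell 32.7%. The letters TTTGAA or TTCGAA, a cell cycle element, were found in 8 of 73 members and in 14.0% of all tested genes. These are matches of letters in a window, and binding was not measured.

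Other steps of the pathway were read from lists of genes outside the symbol rule. The shuttles and the segregase that carry ubiquitinated proteins to the proteasome had the highest share of calls among these ubiquitin lists: 7 of 15 tested genes rose and none fell (46.7%, beside 7.09% higher over the array), with a median log2 fold change of 0.20. Vcp, the ATPase that pulls ubiquitinated proteins out of membranes and complexes, had 5685, 5985 and 6403 against 7462, 6855 and 7077 (0.24 ± 0.06, adjusted p = 0.0191). Its cofactors Nploc4 (0.35 ± 0.06, adjusted p = 0.00285) and Ufd1 (0.21 ± 0.06, adjusted p = 0.0351), which recruit ubiquitin chains to Vcp, also rose. So did Nsfl1c and Ubxn4, other cofactors of Vcp (0.24 and 0.21), the shuttle Ubqln4 (0.38) and the autophagy receptor Sqstm1 (0.20). Further tested probe sets passed for Nploc4 (0.47), Ubxn4 (0.32 and 0.25) and Sqstm1 (0.30). Those that did not pass were of Ufd1 (0.12, adjusted p = 0.206) and Sqstm1 (0.07, adjusted p = 0.85). The count fell to 2 without mineralizing culture 1, to 2 without mineralizing culture 2 and to 3 without AEBSF culture 2. Over the whole array 292, 318 and 477 genes rose in these fits, beside 699 in the main fit. Nploc4 and Ubqln4 passed whichever array was left out. With the hybridization controls none of the 15 passed and their median was 0.06. On that scale 55 genes rose and 1324 fell over the whole array.

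Of 7 tested modifiers, 1 rose: Urm1, a ubiquitin-like protein that carries sulfur for the modification of transfer RNA, had 506, 510.1 and 445 against 896, 849 and 597, and 0.66 ± 0.13 (adjusted p = 0.00884) exceeds the rise of any member. Nedd8 and Sumo2 were at 0.08 and 0.15 without passing. Of 6 tested enzymes of ubiquitin-like modifiers outside the rule, among them Sae1 and Nae1, the partners of Uba2 and Uba3, none passed by limma and 1 had an unadjusted p under 0.05. Of 25 tested deubiquitinases and SUMO proteases outside the rule, 2 rose and 2 fell: beside Psmd14 the nuclear deubiquitinase Bap1 rose (0.24 ± 0.07, adjusted p = 0.032), and the SUMO protease Senp7 (501 ± 50.6 and 313 ± 7.77, -0.67 ± 0.10, adjusted p = 0.00191) and Cyld, a deubiquitinase that restrains inflammatory signalling (434 ± 10.9 and 311 ± 48.5, -0.49 ± 0.12, adjusted p = 0.0214), fell. Of 27 tested HECT, RBR and U-box ligases, 1 rose and 2 fell: Prpf19, a spliceosome ligase, by 0.31 ± 0.06 (adjusted p = 0.0094), Ube4a, which extends chains begun by other ligases, by -0.43 ± 0.08 (adjusted p = 0.00428) and Herc2 by -0.28 ± 0.09 (adjusted p = 0.048). Psmd14, Senp7, Ube4a, Prpf19 and Urm1 passed whichever array was left out. The other tested probe sets of Ube4a gave -0.34, -0.20 and -0.25, and that of Cyld -0.35. None of these passed (adjusted p = 0.0691, 0.369, 0.243 and 0.144). Bap1 passed only without AEBSF culture 3, Herc2 only without AEBSF culture 2, and Cyld only without AEBSF culture 1 or 3. With the hybridization controls Urm1 was still higher. None of the deubiquitinases and SUMO proteases outside the rule then rose and 2 fell, and none of the ligases rose and 4 fell. On that scale 55 of all 9864 tested genes rose and 1324 fell. Prpf19 then had an adjusted p of 0.353.

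The calls differ in how firmly they stand. Without a given array the number of members that rose was 3 to 5 and the number that fell 1 to 3. The rising count was 3 without mineralizing culture 1, 4 without mineralizing culture 2 and 4 without AEBSF culture 2. The falling count was 1 without mineralizing culture 1, 1 without mineralizing culture 2, 1 without AEBSF culture 1 and 2 without AEBSF culture 2.

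**Figure D5:**
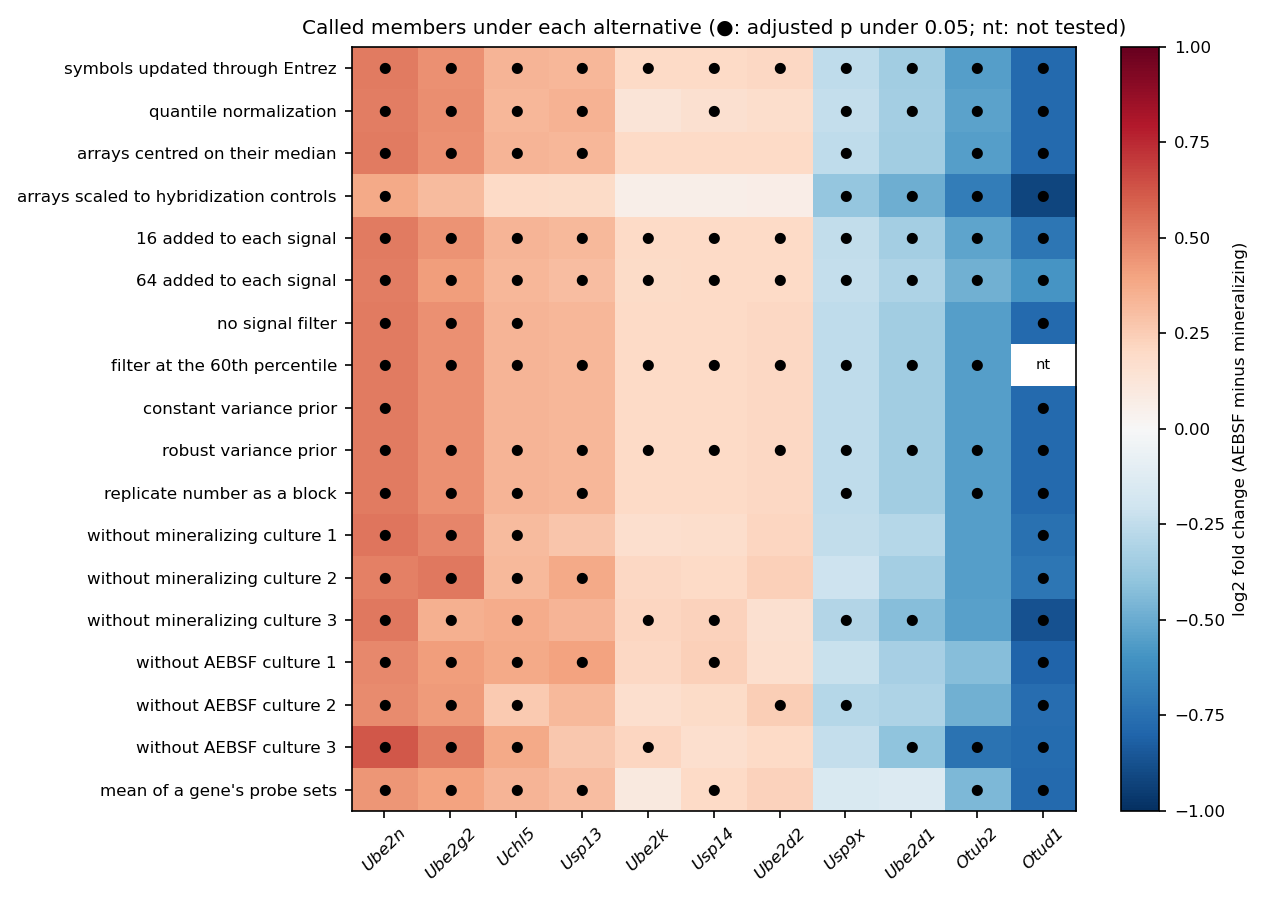
Log2 fold change (colour, AEBSF minus mineralizing) of the 11 genes that passed, in columns, under each of 18 alternative settings, in rows; a dot marks an adjusted p under 0.05 and nt a gene not tested. No colour changes sign, and dots are missing least often for Ube2n and Otud1 and most often for genes near 0.20 such as Ube2k and Ube2d2. The row of updated symbols repeats the main fit.

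The 6 members below the filter were Otud3, Otud7a, Ube2d2b, Ube2u, Usp43 and Usp49, with signals of 2.96 to 77 over all cultures, and they were not tested. Ube2d3, Ube2e1, Ube2v1, Usp22, Otub1 and Otulin were not analysed here.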

How the data were processed

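The deposited values are 1 intensity per probe set and array, MAS5 signals made by the authors in GCOS per the submitters' processing notes; of versions and the scaling target, nothing is given in the sources used here. Groups and replicate numbers came from the sample titles. The values were neither renormalized nor offset before log2 was taken. In R 4.3.3, limma 3.58.1 (lmFit, eBayes with its prior variance trended on mean signal) tested AEBSF minus mineralizing over the 18625 of 31099 probe sets above the 40th percentile of mean log2 signal (a signal of 67.2), with control probe sets left out. Benjamini-Hochberg adjustment ran over the same probe sets, and 0.05 was the threshold. The brightest probe set stood for its gene. SD is over 3 arrays, SE is limma's, and the number of arrays limits the precision. Ratios of pairs were tested by exact permutation. The script was tested on simulated data.

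The members and lists were chosen with earlier results of these data known. Named are all members that passed, 50 fixed by name, the 5 largest changes that did not pass and up to 6 genes that passed from each other list; other names were chosen after their values were seen. Left out were 10 probe sets that match the rule among several symbols. Alternatives were other scalings, added constants, filters and variance priors, averaging the probe sets of a gene, symbols updated through Entrez identifiers, the replicate number as a block, and each array left out. The main fit already carried the updated symbols, so that alternative repeats it. Protein sequences were not used here.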

Additional observations from a re-analysis of the deposited data

How the results depend on the processing

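Each result was recomputed under 18 alternatives. The 1 with symbols updated through Entrez identifiers could not differ, because the main fit already used those symbols. Its pairs are among those counted as the same below. No named gene changed the sign of a called value: of 1506 pairs of a tested gene named in the text and an alternative, 1261 had the same direction and side of the threshold, 185 lost and 5 gained it, and 55 that did not pass changed sign without passing. The 7 members that rose became 4 when arrays were centred on their median, 1 with arrays scaled to the hybridization controls, 3 with no signal filter, which tests 14217 genes, and 1 with a constant variance prior; the cause of the other moves was not tested. The 4 that fell became 1 under the constant prior and 1 without the filter. Over the whole array 16.3% of genes passed in the main fit, 12.2% with median centring and 14.0% with the hybridization controls. Without the filter the share was 7.82% and under the constant prior 5.52%. Leaving out an array, which tests fewer samples, gave 3 to 5 higher and 1 to 3 lower. With the replicate number as a block 4 rose and 3 fell, and 11.7% of all tested genes passed. The sample titles do not say whether same-numbered cultures were paired. Deviations of same-numbered cultures from their group means correlated at 0.011, -0.119 and -0.036, and no culture correlated best with its own number. Deviations from means of 3 arrays cannot decide whether the cultures were paired. The other alternatives gave 5 to 8 higher and 3 to 4 lower; with the mean of all probe sets of a gene these were 8 and 3, of which 5 and 2 were among the 7 and 4. With 3 arrays a group, small changes of dim genes could not be resolved at this precision.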

Other observations

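Proliferation genes were read beside the conjugating enzymes of the cell cycle. Of 25 tested, 6 rose and 5 fell with AEBSF by limma (adjusted p under 0.05), with a median log2 fold change of -0.06; over all 9864 tested genes 7.09% rose and 9.22% fell. The risers were Mcm2, Mcm3, Mcm5 and Mcm6, subunits of the replicative helicase, Pcna, the sliding clamp, and Ccna2. Mcm6 went from 6786 ± 188 to 8820 ± 437 (0.38 ± 0.05, adjusted p = 0.00131) and Mcm3 from 1026 ± 21.3 to 1329 ± 48 (0.37 ± 0.06, adjusted p = 0.00322). The genes that fell act in mitosis or chromosome separation: Top2a (-0.28 ± 0.06), Ccnb1 (-0.26 ± 0.06), Kif11 (-0.32 ± 0.07), Cenpe (-0.54 ± 0.14) and Ttk (-0.21 ± 0.06), with adjusted p-values of 0.0135 to 0.0451. With arrays scaled to the hybridization controls none of the 25 rose and 6 fell, and with a constant variance prior 2 rose and none fell. Over all tested genes 55 rose and 1324 fell on the first of these, and 145 and 399 on the second. The count that fell was 2 without mineralizing culture 1, 2 or 3 and 3 without AEBSF culture 1. Over all tested genes 497, 505, 555 and 672 fell in these fits, beside 909 in the main fit. Ccna2, Pcna and Ttk passed in 1 of the 6 fits that leave out an array. Among the genes that fell, the other probe set of Kif11 also passed (-0.33, adjusted p = 0.0199). Those of Top2a (-0.18, adjusted p = 0.142), Ccnb1 (-0.14, adjusted p = 0.277) and Ttk (-0.31, adjusted p = 0.0688) did not.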
